A study of Homo sapiens with 18 samples.

Results

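Expression of 10 autophagy and mitophagy genes was followed across 18 RNA sequencing libraries of the multiple myeloma lines MM1R and MM1S. The genes were taken by symbol from a table of 43735 genes and are GABARAPL1, GABARAP, MAP1LC3B, WIPI1, ULK1, BNIP3, BNIP3L, TFEB, NBR1 and CALCOCO2. MM1S cells are sensitive to glucocorticoids and MM1R cells are their resistant counterpart, both being established human plasma cell lines. In each line there were 3 groups of 3 libraries: untreated cells, cells given 5 µM RSL3 for 3 h, and cells given 2 µM Fer-1 for 2 h and then 5 µM RSL3 for 3 h (Fer-1 + RSL3). RSL3 inhibits GPX4, the enzyme that detoxifies lipid peroxides, and so induces ferroptosis, an iron-dependent form of cell death, whereas Fer-1 (ferrostatin-1) traps lipid radicals. Replicate numbers stand for cell passages (4, 6 and 7 in MM1R, 16, 22 and 23 in MM1S), and every passage contributed 1 library per treatment. All cells grew in the same serum-supplemented medium, and no group received Fer-1 alone.

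Macroautophagy encloses cytoplasm in a double membrane, the autophagosome, which then fuses with lysosomes. The kinase ULK1 starts the process, WIPI1 binds the lipid PI3P on the forming membrane, and small ubiquitin-like proteins of the ATG8 family, among them MAP1LC3B (LC3B), GABARAP and GABARAPL1, are attached to that membrane. Cargo receptors such as NBR1 and CALCOCO2 (NDP52) tether ubiquitinated cargo to the ATG8 proteins, BNIP3 and BNIP3L (NIX) mark mitochondria for removal (mitophagy), and TFEB is a transcription factor of lysosomal and autophagy genes. Selective autophagy is linked to ferroptosis through the degradation of ferritin, which frees iron. Transcript levels do not measure the flux through autophagosomes, and in bulk RNA a change in level cannot be told apart from a change in the share of cells that express the gene.

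Total counts per library lay between 17635438 and 19368343. Levels are in CPM, which divides counts by the library size and its TMM factor, and fold changes and FDR values come from quasi-likelihood tests in edgeR, adjusted by Benjamini-Hochberg over all 14281 genes that passed a filter on low counts. Of the 10 genes, 9 passed the filter and BNIP3 did not. A gene was called at an FDR under 0.05, and counted as a DEG if its log2 fold change was also over 1 in size. All 8 plasma cell markers were expressed, with a summed level of 4381 to 6243 CPM. The markers of other cells summed to at most 11.8 CPM (T cells), 0.601 CPM (myeloid cells), 19.6 CPM (fibroblasts, from COL1A1) and 1.90 CPM (epithelial cells), and the fibroblast value was reached in an MM1S RSL3 library (replicate 1) against at most 3.93 CPM in the groups other than MM1S RSL3. The fibroblast markers COL1A2 and DCN were at most 0.0657 and 0.108 CPM in any library. The MM1R Fer-1 + RSL3 library of passage 6 (replicate 2) stood apart. Over 38 genes that were at least 3 log2 units higher in MM1S than in the other MM1R libraries, it was at a median of 50.2% of the mean MM1S level, whereas the 8 other MM1R libraries were at 0.940% to 3.06%. Its level of NR3C1, the glucocorticoid receptor gene, was 50.2 CPM against 13.8 to 22.3 CPM in the other MM1R libraries. The main values of the MM1R Fer-1 + RSL3 group are also given without this library.

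GABARAPL1 carried the RSL3 response of the set. The gene lies at chr12:10365057-10375727 of hg19 on the plus strand, overlaps the antisense gene GABARAPL1-AS1, and encodes an ATG8 protein that acts late in autophagosome formation. In untreated MM1R cells it was at 18.6, 13.4 and 14.0 CPM (replicates 1 to 3), and in RSL3-treated MM1R cells at 89.1, 48.2 and 91.3 CPM. In untreated MM1S cells it was at 19.2, 16.1 and 13.9 CPM, and with RSL3 at 278, 61.7 and 53.2 CPM. Every RSL3 library was thus above every untreated library of its line, and 1 MM1S library was far above the other two. The log2 fold change was 2.31 (SE 0.48, 95% interval 1.29 to 3.33, FDR 0.0153) in MM1R and 3.00 (SE 0.49, 95% interval 1.96 to 4.03, FDR 0.00489) in MM1S, or 4.96-fold and 7.97-fold. Averaged over both lines it was 2.65 (SE 0.34, FDR 0.00016). Without MM1S RSL3 replicate 1 the MM1S value was 1.81 (FDR 0.00274), the averaged value was 2.06 (FDR 5.14e-06) and the MM1R value was 2.32 (FDR 9.21e-05). In MM1R the FDR rose above the threshold, to at most 0.0778, without any one of the 3 untreated libraries or without RSL3 replicate 1 or 3. Fitted on the MM1S libraries of both treatments alone, the MM1S change was 2.98 with an FDR of 0.187.

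The 250 bases upstream of the annotated start of GABARAPL1 are shown because this gene changed most, beside those of MAP1LC3B, the other gene called, and of GABARAP, the close paralog that was not called. They are RefSeq sequences of build GRCh38.p14, 5′ to 3′ on the gene's strand, at chr12:10212627-10212876 (plus), chr16:87392086-87392335 (plus) and chr17:7242450-7242699 (minus). Capitals mark a match to a searched motif.
GABARAPL1: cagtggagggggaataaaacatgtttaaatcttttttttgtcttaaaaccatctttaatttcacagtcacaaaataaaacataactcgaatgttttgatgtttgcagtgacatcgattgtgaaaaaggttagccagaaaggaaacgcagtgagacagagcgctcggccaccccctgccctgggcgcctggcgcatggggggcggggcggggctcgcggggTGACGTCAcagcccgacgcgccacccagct
MAP1LC3B: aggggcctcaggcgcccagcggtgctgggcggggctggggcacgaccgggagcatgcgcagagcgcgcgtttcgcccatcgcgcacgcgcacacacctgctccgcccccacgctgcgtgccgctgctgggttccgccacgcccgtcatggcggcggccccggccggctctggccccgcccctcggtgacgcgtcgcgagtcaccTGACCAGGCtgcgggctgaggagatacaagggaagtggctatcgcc
GABARAP: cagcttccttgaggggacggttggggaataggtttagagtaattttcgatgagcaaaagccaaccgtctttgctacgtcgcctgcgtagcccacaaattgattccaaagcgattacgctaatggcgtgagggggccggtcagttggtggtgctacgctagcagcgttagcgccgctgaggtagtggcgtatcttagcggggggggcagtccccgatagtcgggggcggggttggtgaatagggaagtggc
The capitals in GABARAPL1 are TGACGTCA, the cAMP response element, at bases -30 to -23 from the start. This motif was added to the search after the sequence had been seen, and 1.85% of the 35114 promoters in the table (250 bases before to 50 after the start) hold it. The capitals in MAP1LC3B match the antioxidant response element core TGACNNNGC at -46 to -38, which 13.3% of promoters hold. Promoters of 9 of the 10 genes were in the table. Both strands were searched for 6 further motifs. Of these, the E-box CACGTG (7.26% of promoters) was found in BNIP3, the FOXO motif GTAAACA (3.42%) in CALCOCO2, and the hypoxia response element core ACGTG (21.4%), which overlaps the E-box, in BNIP3 and CALCOCO2. CALCOCO2 also held TGACNNNGC. No promoter of the 9 held the CLEAR core TCACGTGA (0.98%), the C/EBP-ATF response element TTGCATCA (0.866%) or the heat shock element core GAANNTTC (6.77%). A match is a stretch of letters, and binding at these positions was not measured.

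**Figure D1:**
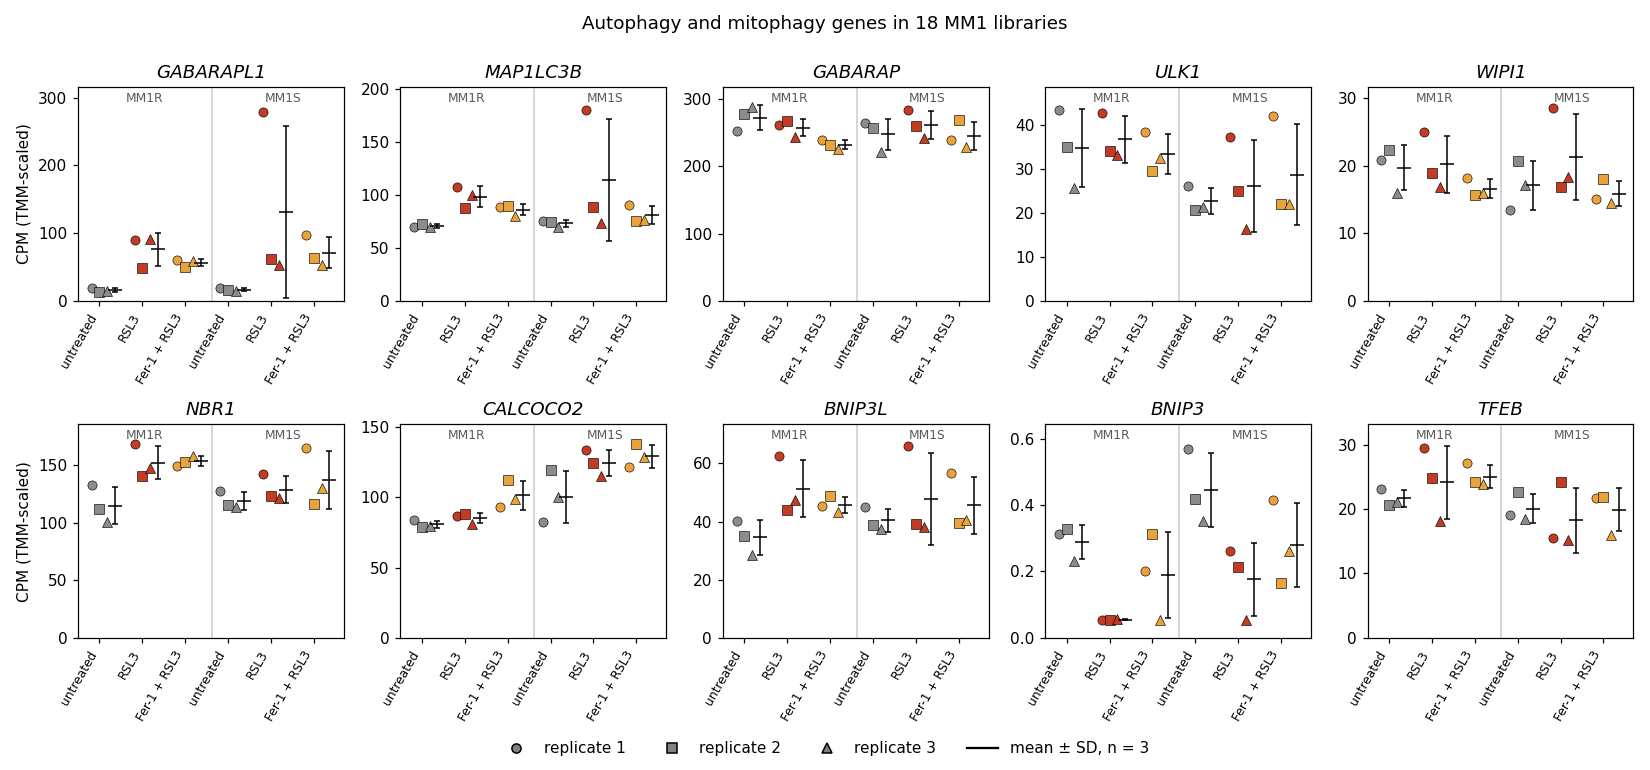
Levels of the 10 genes in CPM (vertical axes, each from 0) in every library, by line and treatment; circles, squares and triangles are replicates 1, 2 and 3, and the black bar is the mean ± SD of 3 libraries. GABARAPL1 is at 13.4 to 19.2 CPM in all untreated libraries and at 48.2 CPM or more in all treated ones, and MM1S RSL3 replicate 1 is at 278 CPM.

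In order of mean level, GABARAPL1 was at 15.3 ± 2.8 CPM in untreated MM1R and 16.4 ± 2.6 CPM in untreated MM1S (SD, n = 3). It was at 56.2 ± 5.6 CPM in MM1R Fer-1 + RSL3, 70.8 ± 22.9 CPM in MM1S Fer-1 + RSL3, 76.2 ± 24.3 CPM in MM1R RSL3 and 131 ± 128 CPM in MM1S RSL3. Neighbours in this order overlapped, except that both untreated groups lay wholly below the 4 treated ones. Within a passage, the log2 ratio of RSL3 to untreated was 2.25, 1.83 and 2.69 in MM1R and 3.85, 1.93 and 1.92 in MM1S.

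MAP1LC3B, at chr16:87417559-87438385 of hg19 (plus strand, overlapping FBXO31 on the other strand), encodes LC3B, the most used marker of autophagosomes. It was at 69.4, 72.6 and 69.1 CPM in untreated MM1R and at 107, 87.3 and 99.8 CPM with RSL3. In MM1S it was at 75.1, 74.2 and 69.1 CPM without treatment and at 180, 88.3 and 73.6 CPM with RSL3. The groups did not overlap in MM1R, but in MM1S the lowest RSL3 library lay among the untreated ones. The log2 fold change was 0.48 (SE 0.22, FDR 0.261) in MM1R and 0.65 (SE 0.22, FDR 0.118) in MM1S, and the gene was called only in the average over both lines, at 0.56 (SE 0.16, 95% interval 0.23 to 0.89, FDR 0.0237). Without MM1S RSL3 replicate 1 the MM1S value was 0.16, the averaged value was 0.32 (FDR 0.0116), and the MM1R value was called at 0.48 (FDR 0.0084). The averaged call was lost without MM1R RSL3 replicate 1 (FDR 0.0594), without MM1S untreated replicate 3 (FDR 0.0523) or with the untreated and RSL3 groups fitted alone (FDR 0.0585).

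GABARAP (chr17:7143327-7145768, minus strand) was the most abundant of the 10 genes. Its level per kb of annotated exon was 119 to 140 CPM per kb in the 6 groups, against 3.79 to 32.3 CPM per kb for GABARAPL1 and 14.0 to 22.6 CPM per kb for MAP1LC3B. It was at 252 to 288 CPM in untreated MM1R and 244 to 268 CPM with RSL3, and at 222 to 264 CPM and 243 to 284 CPM in MM1S. Its log2 fold change was -0.08 (95% interval -0.29 to 0.13) in MM1R and 0.08 (95% interval -0.13 to 0.29) in MM1S, so a change of the size seen for GABARAPL1 lay outside these intervals. The intervals of the 2 paralogs did not overlap in either line. GABARAPL2, the remaining ATG8 gene tested, was not called. Counts for near copies were low: 3 to 13 counts per library for MAP1LC3B2, and at most 1 for GABARAPL3, 2 for MAP1LC3A and 3 for MAP1LC3C. MAP1LC3B has 1 listed pseudogene, and how reads shared with near copies were counted is not given in the sources used here.

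Across the set, 1 of the 9 tested genes was called in MM1R and 1 in MM1S, GABARAPL1 in both cases, against 3.36% and 3.67% of all tested genes. It was also the only DEG of the set in each line, where DEGs made up 1.2% and 1.61% of tested genes. In the average over both lines 2 of 9 were called against 15.5% of all genes, and 1 was a DEG against 3.24%. The RSL3 and untreated libraries did not overlap for 4 of the 9 genes in MM1R (GABARAPL1, MAP1LC3B, BNIP3L and NBR1, all higher with RSL3), against 25.8% of all genes, and for 1 in MM1S (GABARAPL1), against 24.9%. The median log2 fold change of the 9 genes was 0.16 in MM1R, 0.24 in MM1S and 0.19 in the average, beside medians of about 0 over all tested genes (0.000226, 0.0022 and -0.000133). By edgeR, 4 of the 9 had an unadjusted p under 0.05 in MM1R, 3 in MM1S and 5 in the average, all higher. Over all 14281 genes these were 1440 higher and 1199 lower in MM1R, 1552 and 1227 in MM1S, and 2289 and 2024 in the average.

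ULK1 and WIPI1, which act in the earliest steps, were not called. ULK1, the initiating kinase (chr12:132379167-132407695), was at 43.4, 35.1 and 25.6 CPM in untreated MM1R and 42.8, 34.0 and 33.2 CPM with RSL3. The MM1S levels were 26.0, 20.6 and 21.4 CPM and, with RSL3, at 37.2, 24.9 and 16.4 CPM. The averaged log2 fold change was 0.14 (95% interval -0.28 to 0.56, FDR 0.689). WIPI1 (chr17:66417089-66453654), which reads PI3P on the forming membrane, was at 20.8, 22.4 and 15.98 CPM and, with RSL3, 24.9, 18.8 and 16.8 CPM in MM1R. The MM1S levels were 13.4, 20.7 and 17.1 CPM and, with RSL3, 28.5, 16.8 and 18.3 CPM. Its averaged log2 fold change was 0.17 (95% interval -0.14 to 0.49, FDR 0.481). In both genes the highest MM1S RSL3 library was replicate 1, and the treated and untreated libraries overlapped. WIPI1 overlaps ARSG, which had 152 to 274 counts per library.

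NBR1 and CALCOCO2, the cargo receptors of the set, were not called with RSL3 in either line. NBR1 (chr17:41322498-41363708), a receptor for ubiquitinated proteins and peroxisomes, was at 132, 111 and 101 CPM in untreated MM1R and at 168, 140 and 147 CPM with RSL3. MM1S cells were at 128, 115 and 113 CPM and, with RSL3, at 142, 123 and 121 CPM. Its log2 fold change was 0.40 (SE 0.13, FDR 0.102) in MM1R, 0.12 (SE 0.13, FDR 0.678) in MM1S and 0.26 (SE 0.09, FDR 0.0667) in the average. Every passage had more NBR1 with RSL3, with log2 ratios of 0.35, 0.33 and 0.55 in MM1R and 0.15, 0.10 and 0.09 in MM1S. With the passage as a replicate block, NBR1 was called in MM1R (FDR 0.0139) and in the average (FDR 0.00965), where 13.1% and 30.4% of all genes were called. DESeq2, without the block, also called NBR1, at 0.40 in MM1R (FDR 0.0488) and 0.25 in the average (FDR 0.0455). CALCOCO2 (chr17:46908380-46943884), a receptor for bacteria and mitochondria, was at 83.8, 79.0 and 79.5 CPM and, with RSL3, 86.6, 87.8 and 81.0 CPM in MM1R. In MM1S it was at 82.0, 119 and 100 CPM and, with RSL3, at 134, 124 and 115 CPM. Its averaged log2 fold change was 0.19 (SE 0.08, FDR 0.134), and the treated and untreated libraries overlapped in both lines.

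The mitophagy receptors BNIP3L and BNIP3 differed widely in their counts. BNIP3L (chr8:26240570-26363152) was at 40.3, 34.9 and 28.4 CPM in untreated MM1R and at 62.5, 44.002 and 47.6 CPM with RSL3. In MM1S it was at 44.98, 38.8 and 37.4 CPM and, with RSL3, at 66.1, 39.2 and 38.1 CPM. The groups were apart in MM1R, while in MM1S only replicate 1 stood above the untreated range. The log2 fold change was 0.57 (SE 0.21, FDR 0.143) in MM1R, 0.24 (SE 0.21, FDR 0.566) in MM1S and 0.41 (SE 0.15, FDR 0.069) in the average. With the replicate block BNIP3L was called in MM1R (FDR 0.0117) and in the average (FDR 0.00589). With no filter on low counts it was likewise called in both (FDR 0.0191 and 0.0101), and with DESeq2 in the average (FDR 0.0438). FDRs with no filter take in little of a gene's own spread between libraries, as given for BNIP3 below. Without MM1S RSL3 replicate 1, the MM1S value was -0.06, the averaged value was 0.26 (FDR 0.176) and the MM1R value was called at 0.58 (FDR 0.0344).

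BNIP3 (chr10:133781188-133795471) had 1 to 11 counts per library and 81 in all, which is too few for the filter. In MM1R the 3 untreated libraries had 6, 6 and 4 counts, each RSL3 library had 1, and the Fer-1 + RSL3 libraries had 4, 6 and 1. In MM1S the counts were 11, 8 and 7 without treatment, 4, 4 and 1 with RSL3, and 8, 3 and 5 with Fer-1 + RSL3. RSL3 libraries held fewer counts than the untreated library in all 6 passages. Summed over 3 libraries and scaled by library size, the ratio of RSL3 to untreated was 0.188 in MM1R (exact 95% interval 0.0352 to 0.658, 3 against 16 counts) and 0.383 in MM1S (0.158 to 0.844, 9 against 26 counts), and these intervals cover counting error only. With no filter on low counts, edgeR gave BNIP3 an averaged log2 fold change of -1.81 (FDR 0.0271), whereas DESeq2 gave -1.89 with no adjusted value. In MM1R that edgeR fit gave -2.28 (SE 0.92, p 0.0137), which is close to the p of a normal test. FDRs of that fit thus lean on a spread shared over genes and take in little of a gene's own spread between libraries. The annotation lists 44 BNIP3 pseudogenes, and how reads shared with them were counted is not given in the sources used here. Whether the low counts reflect low expression was not tested.

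TFEB (chr6:41651716-41703997), the lysosomal transcription factor, was at 23.2, 20.7 and 21.1 CPM in untreated MM1R and 29.5, 24.8 and 18.1 CPM with RSL3. MM1S cells had 19.05, 22.6 and 18.4 CPM and, with RSL3, 15.5, 24.1 and 15.2 CPM. Its log2 fold change was 0.16 (95% interval -0.25 to 0.56) in MM1R and -0.13 (95% interval -0.54 to 0.28) in MM1S, with FDRs of 0.735 and 0.766. TFEB protein is controlled largely by its location in the cell, which RNA does not show.

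**Figure D2:**
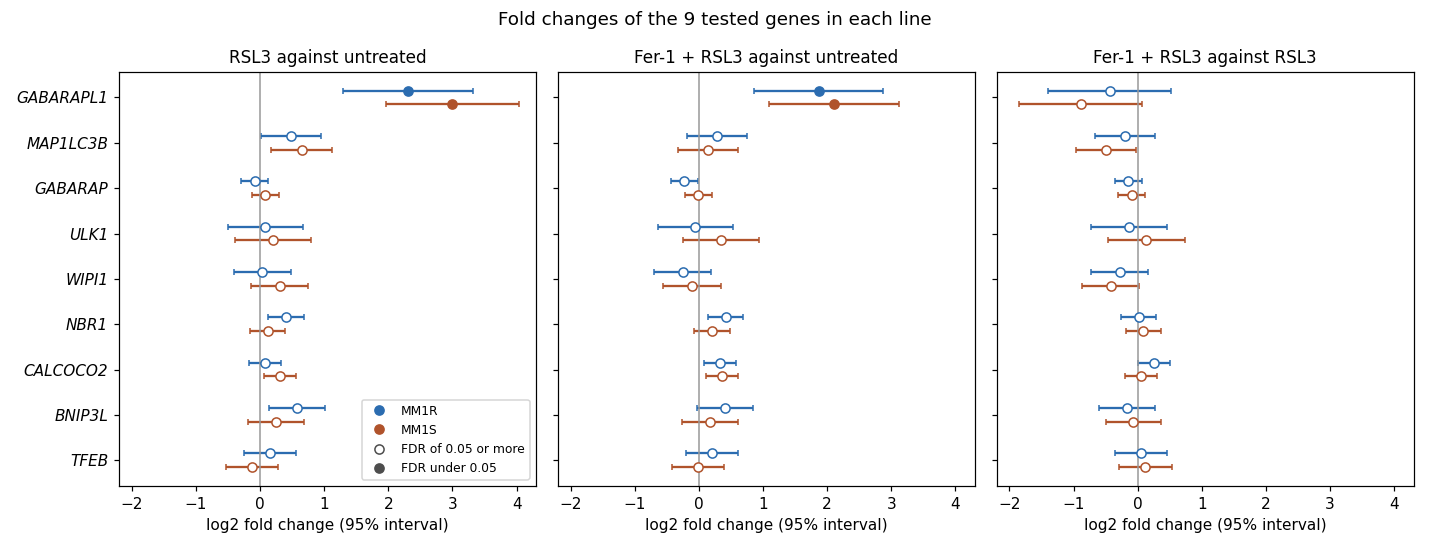
Log2 fold changes (horizontal axes) of the 9 tested genes with 95% intervals, in MM1R (blue) and MM1S (brown), for RSL3 against untreated, Fer-1 + RSL3 against untreated and Fer-1 + RSL3 against RSL3; filled points have an FDR under 0.05. GABARAPL1 alone has filled points, at 2.31 and 3.00 with RSL3 and at 1.87 and 2.11 with Fer-1 + RSL3, and no gene has one in the third panel.

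The comparison of Fer-1 + RSL3 with RSL3 alone asked whether trapping lipid radicals altered the response. In MM1R Fer-1 + RSL3 libraries GABARAPL1 was at 59.9, 49.8 and 58.9 CPM, within the range of the RSL3 libraries, and in MM1S at 96.6, 62.8 and 53.0 CPM. Against RSL3 its log2 fold change was -0.44 (95% interval -1.40 to 0.52, FDR 0.925) in MM1R, -0.89 (95% interval -1.84 to 0.07, FDR 0.875) in MM1S and -0.66 (SE 0.32, FDR 0.40) in the average. Without the MM1R Fer-1 + RSL3 library of passage 6 the MM1R value was -0.36 (FDR 1). Without MM1S RSL3 replicate 1 the MM1S value turned to 0.30 and the averaged value was -0.075 (FDR 0.914). With no filter on low counts, which tests 27858 genes, GABARAPL1 was called lower in MM1S (-0.86, FDR 3.35e-05) and in the average (-0.65, FDR 2.39e-06). That setting called 1.11% and 2.05% of all genes. As given for BNIP3, its FDRs take in little of a gene's own spread between libraries. The MM1S RSL3 libraries ran from 53.2 to 278 CPM, and the fit with no filter was not repeated without replicate 1. With the filter, edgeR called 0 of 9 genes in either line or in the average, against 0% and 0% of all genes in MM1R and MM1S and 0.119% in the average. At an unadjusted p under 0.05 there were 0 in MM1R, 1 in MM1S (MAP1LC3B, -0.50) and 2 in the average (MAP1LC3B, -0.34, and WIPI1, -0.35). Over all 14281 genes these were 535 higher and 346 lower in MM1R, 327 and 494 in MM1S, and 941 and 885 in the average. Without MM1S RSL3 replicate 1, MAP1LC3B was at -0.0039 in MM1S and -0.10 in the average, and WIPI1 at -0.22 in the average. The lower bounds for GABARAPL1 allow a change down to -1.40 in MM1R and -1.84 in MM1S on the log2 scale. The libraries did not overlap for 2 of 9 genes in MM1R, GABARAP (lower with Fer-1) and CALCOCO2 (higher), against 13.4% of all genes, and for 0 in MM1S, against 8.77%. The MM1R count was also 2, against 19.7% of all genes, without the library of passage 6.

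GABARAPL1 remained above untreated cells in the presence of Fer-1. Against untreated, its log2 fold change was 1.87 (SE 0.48, FDR 0.0227) in MM1R and 2.11 (SE 0.48, FDR 0.0178) in MM1S, or 3.66-fold and 4.31-fold, and within passages the log2 ratios ran from 1.68 to 2.33. The MM1R call was lost without untreated replicate 2 or 3 or Fer-1 + RSL3 replicate 1 or 3 (FDR at most 0.0867). In MM1S the call did not hold when untreated replicate 1, 2 or 3 or Fer-1 + RSL3 replicate 1 was left out (FDR at most 0.0797). Without the MM1R Fer-1 + RSL3 library of passage 6 the MM1R value was 1.95 (FDR 0.0451). It was the only gene of the 9 called in either line, against 9.22% and 4.61% of all genes. These comparisons share their untreated libraries with those of RSL3. Libraries did not overlap for 7 of 9 genes in MM1R, against 30.6% of all genes, and for 3 in MM1S, against 28.3%. In MM1R, GABARAP was lower, at 240, 232 and 226 CPM against 252 to 288 CPM, and the other 6 (GABARAPL1, MAP1LC3B, BNIP3L, TFEB, NBR1 and CALCOCO2) were higher. Without the library of passage 6 the MM1R count was again 7, against 37.9% of all genes.

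CALCOCO2 had its highest group mean with Fer-1 + RSL3 in each line. With Fer-1 + RSL3 it was at 92.8, 112 and 98.7 CPM in MM1R and 122, 138 and 128 CPM in MM1S, above all untreated libraries of the line. In MM1S these libraries overlapped those of RSL3 alone. Against RSL3 the log2 fold change of CALCOCO2 was 0.25 (FDR 0.81) in MM1R, or 0.17 without the library of passage 6, and 0.05 (FDR 0.989) in MM1S. The log2 fold change against untreated was 0.33 (SE 0.12, FDR 0.0987) in MM1R and 0.36 (SE 0.12, FDR 0.093) in MM1S. With the passage as a replicate block it was called in both lines (FDR 0.0427 and 0.0322), where 22.2% and 14.7% of all genes were called. The highest MM1R level came from the passage 6 library that stood apart. Without that library the MM1R change against untreated was 0.25 and was not called (FDR 0.315, or 0.198 with the block). NBR1 was at 150, 153 and 158 CPM in MM1R Fer-1 + RSL3 (log2 fold change 0.42, FDR 0.0552, FDR 0.00593 with the block and 0.0282 with DESeq2) and at 165, 116 and 130 CPM in MM1S. Without the library of passage 6 the MM1R value was 0.42 (FDR 0.124), or 0.40 (FDR 0.0356) with the block. BNIP3L was at 45.4, 48.8 and 43.2 CPM in MM1R, where it was called with the block (FDR 0.0284), and at 56.9, 39.5 and 40.6 CPM in MM1S. Without the library of passage 6 BNIP3L was at 0.36 in MM1R (FDR 0.434), or 0.33 (FDR 0.158) with the block. MAP1LC3B was at 88.4, 89.0 and 80.0 CPM in MM1R and 90.7, 75.1 and 76.3 CPM in MM1S, and was not called against untreated.

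**Figure D3:**
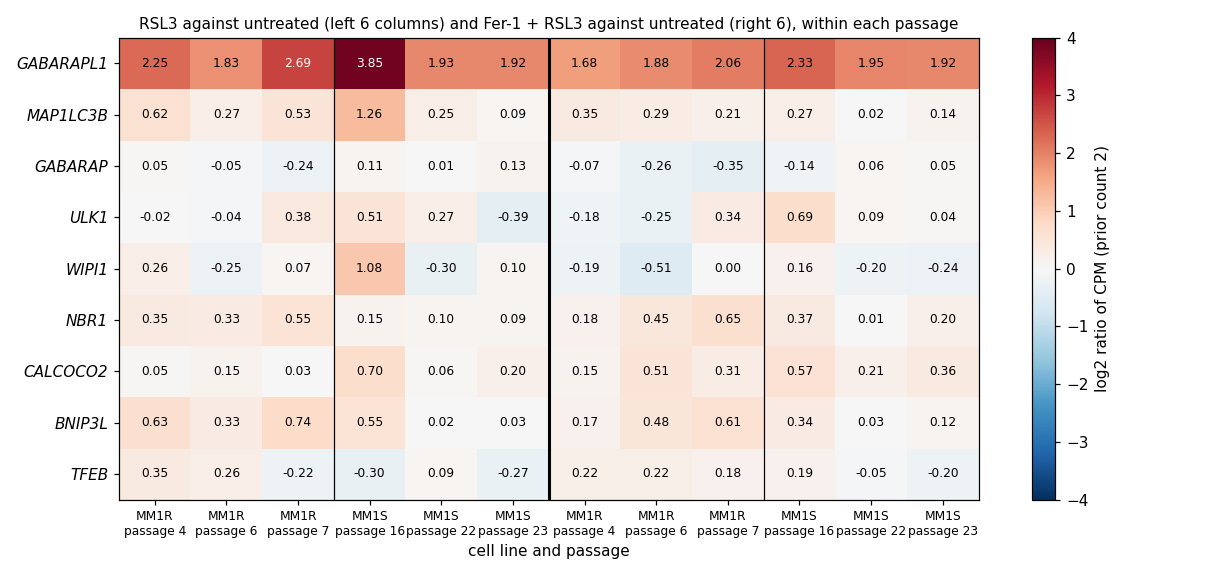
Log2 ratios of CPM (colour, from -4 to 4) within each passage for the 9 tested genes in rows; columns give RSL3 against untreated on the left and Fer-1 + RSL3 against untreated on the right, by line and passage. GABARAPL1 is between 1.68 and 3.85 in all 12 columns, and MAP1LC3B, NBR1, BNIP3L and CALCOCO2 are above 0 in all 12 at smaller ratios.

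Untreated MM1R and MM1S cells were compared to ask whether the lines differed before treatment. None of the 9 genes was called for untreated MM1R against untreated MM1S, against 10.5% of all genes, and for none did the libraries keep apart, against 32.4% of all genes. By edgeR 2 had an unadjusted p under 0.05, ULK1 (log2 fold change 0.61, 95% interval 0.02 to 1.21, FDR 0.186) and CALCOCO2 (-0.31, 95% interval -0.57 to -0.06, FDR 0.106). Over all 14281 genes, 1792 were higher and 1753 lower in MM1R at that p. The difference in RSL3 response between the lines was tested as an interaction, for which 0 of 9 genes were called, against 0% of all genes, and 0 had an unadjusted p under 0.05. Over all 14281 genes, 129 positive and 93 negative interactions had such a p. For GABARAPL1 the interaction was -0.69 (MM1R minus MM1S, 95% interval -2.07 to 0.70), and without MM1S RSL3 replicate 1 it was 0.50.

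The 10 genes were set among 90 genes of the pathway, listed by role from general knowledge, of which 81 passed the filter. Those that did not pass included BNIP3, ATG16L1, MAP1LC3A, MAP1LC3B2, MAP1LC3C, PLEKHM1, SESN2 and NEU1, the last of which is listed at 0 in all libraries. In the average over both lines, 12 of the 81 were called higher with RSL3 and 2 lower, with a median log2 fold change of 0.06. Without the 10 genes this was 10 higher and 2 lower of 72, or 12 in all, beside 15.5% of all genes called in either direction. By line, 2 of 81 were called in MM1R and 4 in MM1S, all higher, against 3.36% and 3.67% of all genes. The number called in the average was 30 with the replicate block, 22 with DESeq2 and 8 with the untreated and RSL3 groups fitted alone. Over all genes these settings called 4345 of 14281 (30.4%), 2720 of 27843 (9.77%) and 1661 of 14281 (11.6%), against 2215 of 14281 (15.5%). The DESeq2 share takes in genes below the filter, whereas all 81 passed it. Among the 14281 filtered genes DESeq2 called 1436 higher and 1276 lower. The number called in the list ranged from 9, without MM1R RSL3 replicate 1 or without MM1S untreated replicate 3, to 17 with 1 library left out. Where it was 9, 1412 and 1665 of all genes were called.

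By role in the same average, 2 of the 4 tested ATG8 genes were called (GABARAPL1 and MAP1LC3B), and 2 of 10 cargo receptors, CCPG1 and SQSTM1. Over all tested genes 15.5% were called, and sets this small cannot tell a role apart from that share. CCPG1, a receptor for autophagy of the endoplasmic reticulum, rose from 23.5 to 34.0 CPM in MM1R and from 21.8 to 34.0 CPM in MM1S (averaged log2 fold change 0.59, SE 0.11, FDR 0.00249) and was called in MM1S alone as well (FDR 0.0345). SQSTM1 (p62), a receptor for ubiquitinated cargo, had only 113 counts in all 18 libraries, at means of 0.0913 and 0.514 CPM in MM1R and 0.103 and 0.763 CPM in MM1S (averaged log2 fold change 2.58, SE 0.71, FDR 0.0225). Its value therefore rests on few counts, and its mean in MM1S RSL3 on 1 library at 1.97 CPM. With untreated means this low, SQSTM1 passed the filter only through treated libraries. Its call, also counted in the list above, thus depends on the groups where it is high and is no separate evidence of a rise. In each line alone SQSTM1 was not called (FDR 0.221 in MM1R and 0.128 in MM1S). As for BNIP3, whether so few counts reflect low expression was not tested. Of the mitophagy genes 0 of 6 tested were called, of the 5 of the initiation complex 0, of the 7 of the class III PI3-kinase complex 0 and of the 5 of membrane supply 0. With 15.5% of all genes called, 0 calls in sets of this size do not show that a role was spared.

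ZFYVE1 (DFCP1), a PI3P-binding protein at the sites where autophagosomes form, rose by 0.69 on the log2 scale (SE 0.17, FDR 0.0118). Of the 5 transcription factors, TFE3, a relative of TFEB, rose by 0.35 (SE 0.08, FDR 0.00541), and ZKSCAN3, a repressor of autophagy genes, by 0.42 (SE 0.12, FDR 0.0291). Lysosomal genes called were 3 of 10, against 15.5% of all genes. They were GLA, an alpha-galactosidase (1.02, SE 0.28, FDR 0.0227), CTSD, the protease cathepsin D (0.30, FDR 0.0398), and LAMP2, a lysosomal membrane protein (0.27, FDR 0.0259). TECPR1, which acts in fusion with lysosomes, rose by 0.28 (FDR 0.038). In mTORC1 control, DDIT4 (REDD1), an inhibitor of mTORC1, had an averaged log2 fold change of 2.73 (SE 0.39, FDR 0.000307), close in size to that of GABARAPL1. The 2 genes called lower were RRAGD, a GTPase that recruits mTORC1 to lysosomes (-0.50, SE 0.10, FDR 0.00384), and ATG4C, a protease of ATG8 proteins (-0.38, SE 0.11, FDR 0.0228). All these values are averages over both lines. By line, DDIT4 was called in MM1R (FDR 0.0152) and MM1S (FDR 0.0116), and TFE3 in MM1S alone (FDR 0.025). The other genes given values here were called in neither line. GLA was at 0.57 (FDR 0.487) in MM1R and 1.47 (FDR 0.0516) in MM1S.

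**Figure D4:**
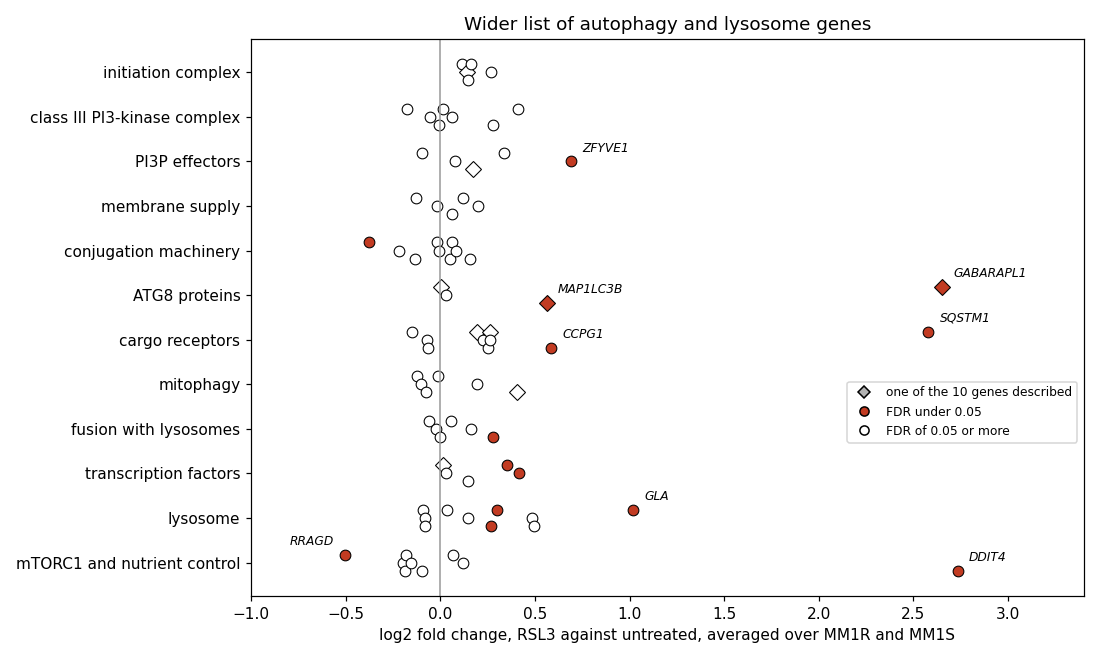
Log2 fold change of RSL3 against untreated averaged over both lines (horizontal axis) for the 81 tested genes of the wider list, 1 point per gene, grouped by role; diamonds are the genes described and red points have an FDR under 0.05. GABARAPL1, SQSTM1 and DDIT4 lie at 2.65, 2.58 and 2.73, and GLA, at 1.02, is the next highest. SQSTM1 passed the filter only through treated libraries.

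Across the 18 libraries, with each line's mean subtracted from log2 CPM, GABARAPL1 varied most closely with MAP1LC3B among the 9 genes (r = 0.83). The r of GABARAPL1 with GABARAP was -0.03 and with TFEB -0.02. BNIP3L varied most closely with NBR1 (r = 0.89). These values describe libraries that share passages and treatments. Among all tested genes, the 3 most like GABARAPL1 included TSC22D3 (r = 0.971) and NAP1L2 (r = 0.970). For MAP1LC3B they were PNPLA8 (r = 0.975), TSC22D1 (r = 0.962) and SDCBP (r = 0.962), and for NBR1 PIK3CA (r = 0.955), KIAA1107 (r = 0.947) and KDM7A (r = 0.944).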

How the data were processed

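RNA of 18 libraries, 3 per group, was sequenced by the authors, who checked reads with FastQC 0.11.5, aligned them to hg19 with STAR 2.7.3a (per the labels) and deposited raw counts (43735 genes). A normalized signal table of 29553 genes was deposited as well, in which counts are divided by a size factor of 0.834 to 1.08, with DESeq2 named in the submitters' notes; it served as an alternative. The counting tool, annotation and use of strand are not given in the sources used here. Each column was assigned by its label.

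Counts were filtered with filterByExpr (minimum count 10; 14281 genes kept), scaled by TMM (0.864 to 1.06) and fitted with edgeR 4.0.16 in R 4.3.3 as 6 group means (12 residual degrees of freedom). Contrasts used the quasi-likelihood test with Benjamini-Hochberg adjustment over all tested genes. Log2 CPM used a prior count of 2. Alternatives were RLE and upper-quartile scaling, other filters, a replicate block, only the groups compared, DESeq2 1.42.0, limma 3.58.1 on log2(normalized value + 1), and each library left out. Steps were tested on simulated data.

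Replicate numbers are passages named in the labels and pair the libraries. Deviations from group means of libraries of the same passage correlated at a median of 0.250 in MM1R (0.0338 to 0.516, 9 pairs) and 0.416 in MM1S (0.216 to 0.681, 9 pairs). The blocked value is printed where it changed a call. Libraries of 1 group differed beyond counting error (chi-square per degree of freedom of at least 7.66 in all 18 pairs). Passages of 1 line are not separate donors. The main fit leaves the pairing out, so its p-values measure the spread between libraries of a group, which differ in passage. Those with the block measure the spread left after differences between passages are taken out.

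The 10 genes, the wider list and the tests were chosen with earlier results of these data known. All 10 genes are named in each comparison; from the wider list, those called in the averaged RSL3 comparison or in both lines, at most 4 per role; and the 3 genes most like each of the 3 with the smallest p; 2 genes of these lists are not reported here. Gene positions and overlaps came from GENCODE v44 lifted to hg19, and upstream sequences from RefSeq (GRCh38.p14). Other data of the study were not analysed here.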

Additional observations from a re-analysis of the deposited data

How the results depend on the processing

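GABARAPL1 stayed higher with RSL3, and with Fer-1 + RSL3, than in untreated cells under every alternative, and no called fold change changed sign. Of 2340 gene results under an alternative (other than the block without 1 library), 2222 kept direction and call, 69 turned, 32 gained and 17 lost the call, and the scalings moved the median of all genes by less than 0.02 on the log2 scale. For each result, 18 alternatives left out 1 library, often one outside the groups compared, and most results were not called in the main fit. The 2222 is therefore high in part by design.

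For RSL3 against untreated in MM1R, where 1 of 9 genes was called, the count was 2 with no filter on low counts, 3 with the replicate block (passages as pairs), 2 with DESeq2, and 0 to 3 with 1 library left out. With 1 library left out, 116 to 198 of all genes were called where the count was 0, and 1203 where it was 3. With no filter, the block and DESeq2, the calls over all genes were 1014 of 27858 (3.64%), 1868 of 14281 (13.1%) and 943 of 27843 (3.39%). The main fit called 480 of 14281 (3.36%). In MM1S the count was 2 with no filter (1214 or 4.36% of all genes, against 524 or 3.67%). It was 0 with only the groups compared (3 or 0.021% of all genes), and 1 to 2 with 1 library left out. Without MM1S RSL3 replicate 3 it was 2, and 955 of all genes were called. In the average (2 genes) the count was 3 with no filter, 4 with the replicate block and with DESeq2, 1 with only the groups compared, and 1 to 3 with 1 library left out. Over all genes, no filter gave 2605 calls (9.35%), the block 4345 (30.4%), DESeq2 2720 (9.77%) and only the groups compared 1661 (11.6%), against 2215 (15.5%). Among the filtered genes DESeq2 called 1436 higher and 1276 lower. The count was 1 without MM1R RSL3 replicate 1 or MM1S untreated replicate 3, where 1412 and 1665 of all genes were called. These counts leave out BNIP3, which was called lower in the average with no filter (FDR 0.0271). For Fer-1 + RSL3 against RSL3 (0 genes), the count was 1 with no filter in MM1S and in the average, GABARAPL1 in both (FDR 3.35e-05 and 2.39e-06). That setting called 308 (1.11%) and 571 (2.05%) of all genes, against 0 (0%) and 17 (0.119%). Against untreated, MM1R had 4 with the replicate block (3173 or 22.2% of all genes, against 1317 or 9.22%), 2 with DESeq2 (1863 or 6.69%) and 0 to 2 with 1 library left out. With 1 library left out, 651 to 835 of all genes were called where the count was 0, and 1002 to 2007 where it was 2. MM1S had 2 with the block (2093 or 14.7%, against 659 or 4.61%) and 0 to 1 with 1 library left out. Where the MM1S count was 0, 292 to 332 of all genes were called. With the replicate block and without MM1R Fer-1 + RSL3 replicate 2, a setting chosen after seeing the data, MM1R had 2 (GABARAPL1 and NBR1, with 1812 of all genes), and ULK1 turned to 0.036. Between untreated lines the count was 1 with no filter (ULK1, with 1852 or 6.65% of all genes against 1498 or 10.5%) and 0 to 1 with 1 library left out. Without MM1S untreated replicate 1 it was 1, and 1481 of all genes were called. The wider list (14 genes called) had 30 with the replicate block, 22 with DESeq2, 8 with only the groups compared and 9 to 17 with 1 library left out, counts chosen after seeing the data. Where 9 of the list were called, 1412 and 1665 of all genes were. The block changed no other count beyond 1.5 times. The causes of these differences were not tested. FDRs with no filter take in little of a gene's own spread between libraries, as given for BNIP3.

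Signs turned only in values near 0 or through 1 library. The averaged RSL3 change of GABARAP was -0.0047 with RLE scaling, -0.0089 with no filter, -0.0062 with DESeq2 and -0.0027 with limma. That of TFEB was -0.0047 with the replicate block and -0.020 with limma. The averaged Fer-1 change of ULK1 was -0.0038 with RLE scaling, -0.0052 with a stricter filter, -0.0045 with DESeq2 and -0.0015 with limma. With 1 library left out, 59 values turned, giving these ranges of log2 fold change. For RSL3 against untreated these ranges in MM1R were WIPI1 -0.15 to 0.14, ULK1 -0.096 to 0.28 and TFEB -0.013 to 0.31. In MM1S they were ULK1 -0.13 to 0.45 and BNIP3L -0.057 to 0.38. In the average they were GABARAP -0.036 to 0.027, ULK1 -0.024 to 0.27 and TFEB -0.11 to 0.091. For Fer-1 + RSL3 against RSL3, the ranges in MM1R were BNIP3L -0.26 to 0.00055, TFEB -0.12 to 0.22 and NBR1 -0.039 to 0.094. In MM1S these were GABARAPL1 -1.26 to 0.30, ULK1 -0.24 to 0.48, BNIP3L -0.26 to 0.24 and NBR1 -0.066 to 0.20. In the average these were ULK1 -0.19 to 0.16, BNIP3L -0.21 to 0.030, TFEB -0.0017 to 0.21 and NBR1 -0.025 to 0.11. For Fer-1 + RSL3 against untreated, MM1R had ULK1 -0.23 to 0.14. MM1S had GABARAP -0.084 to 0.040, WIPI1 -0.25 to 0.053, ULK1 -0.042 to 0.50, BNIP3L -0.013 to 0.27 and TFEB -0.085 to 0.12. Between the untreated lines they were GABARAPL1 -0.26 to 0.031 and NBR1 -0.16 to 0.039. For the interaction they were GABARAPL1 -1.06 to 0.50, MAP1LC3B -0.40 to 0.33 and ULK1 -0.37 to 0.22. Of these, GABARAPL1 in MM1S and in the interaction turned without MM1S RSL3 replicate 1 alone. BNIP3 values rest on 81 counts in all.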
